A study of Mus musculus with 8 samples.

Results

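Sprr1a, H19, Osbpl3, Defb1, Gm5345, 5330417C22Rik and Gm16348 were the 7 genes, of 55487 counted in each liver, described here because their levels differed so much between individual mice. They were picked from the same libraries for their weight on the main axis of variation between mice, so their spread and their shared order are given as a description and were not tested. All 7 passed the filter on low counts, which kept 13400 genes. In every one of them the lowest levels were those of Mc1r LKO mouse 182 and control mouse 181, 1 mouse of each genotype, while the genotypes themselves overlapped.

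Livers of 8 mice were sequenced. Mice 154, 159, 181 and 193 were controls, and mice 141, 156, 157 and 182 lacked hepatocyte Mc1r (Mc1r LKO). All were males that carried the floxed Mc1r fl/fl allele, and the Mc1r LKO mice also carried Cre under the albumin promoter, which is active in hepatocytes, so that other liver cells kept the floxed gene. The control mice were age-matched Mc1r fl/fl mice without Cre. Mice of both genotypes were 8 weeks old when they were placed on a cholesterol-rich Western diet, on which they stayed for 12 weeks, and polyadenylated RNA of each liver was sequenced as 1 library. Between 10773151 and 24763375 read pairs were counted on genes per mouse. The floor used for 0 observed counts, 3 counts, stood for 0.121 to 0.278 CPM (counts scaled to the size of each library). Mouse 182 had 21491021 and mouse 181 had 19808369 counted read pairs, above the 10773151 of control mouse 159, the shallowest library. Mc1r itself had 0 counts in all 8 libraries, so the deletion could not be checked. The hepatocyte transcript Alb was between 51800 and 74800 CPM in the 8 livers, highest in mouse 182.

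When dietary fat exceeds what the liver can burn or export, hepatocytes store triglyceride in lipid droplets that are coated by perilipins and CIDE proteins, the state called steatosis. Injured fatty liver takes up blood monocytes, which become macrophages rich in lysosomal and lipid-handling genes, and its stellate cells lay down collagen. Hepatocyte genes also follow the pulses of growth hormone, which keep the male pattern of major urinary proteins and cytochromes P450 apart from the female pattern. None of liver fat, histology or plasma enzymes was paired with the libraries analysed here, so steatosis and injury are described only through genes.

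The genes have little in common by type or place. Sprr1a encodes a small proline-rich protein of the cornified envelope of squamous epithelium and is induced in other stressed cells. It lies on the minus strand of chromosome 3 of GRCm38, from 92483952 to 92485895. H19, an imprinted long non-coding RNA that is abundant in fetal liver and silenced after birth, lies on the minus strand of chromosome 7 from 142575529 to 142578143. Osbpl3 encodes an oxysterol-binding protein relative that carries lipids between membranes and lies on the minus strand of chromosome 6 from 50293330 to 50456201. Defb1, an epithelial antimicrobial peptide of the beta-defensin family, lies on the plus strand of chromosome 8 from 21776599 to 21795185. 5330417C22Rik, which RefSeq names Elapor1 after its protein in the endosomes and lysosomes, lies on the minus strand of chromosome 3 from 108455694 to 108536536. Gm16348, annotated as a non-coding RNA, lies on the plus strand of chromosome 8 from 41218139 to 41220894. Gm5345 is annotated as a processed pseudogene on the minus strand of chromosome 8, from 40853828 to 40855027. Its transcript was 90.7% identical over 1016 aligned bases to that of another gene model, Gm12070, so the origin of its reads is uncertain.

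The promoters of the 3 protein-coding genes for which the RefSeq table (GRCm38.p6) held an entry are shown, since genes that share an order of mice invite a look at their start sites. Each runs from 250 bases before to 50 bases after the annotated start site. The stretches shown are chr3:92485832-92486131 for Sprr1a, chr6:50456121-50456420 for Osbpl3 and chr3:108536492-108536791 for 5330417C22Rik, all on the minus strand. Capitals mark every match, on either strand, to 8 motifs searched, namely the TATA box (TATAAA), the AP-1 site (TGANTCA), the TEAD site (GGAATG), the C/EBP site (TTGCNNCAA), the nuclear receptor motif (AGGTCA), the HNF4 site (CAAAGTCCA), the CCAAT box (CCAAT) and the glucocorticoid receptor (GR) motif (AGAACA).
Sprr1a: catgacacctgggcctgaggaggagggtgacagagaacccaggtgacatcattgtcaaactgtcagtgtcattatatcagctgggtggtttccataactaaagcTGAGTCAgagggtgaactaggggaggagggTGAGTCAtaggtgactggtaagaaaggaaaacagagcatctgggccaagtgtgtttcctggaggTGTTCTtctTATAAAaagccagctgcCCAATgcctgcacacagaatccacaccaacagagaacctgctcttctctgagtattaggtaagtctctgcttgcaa
Osbpl3: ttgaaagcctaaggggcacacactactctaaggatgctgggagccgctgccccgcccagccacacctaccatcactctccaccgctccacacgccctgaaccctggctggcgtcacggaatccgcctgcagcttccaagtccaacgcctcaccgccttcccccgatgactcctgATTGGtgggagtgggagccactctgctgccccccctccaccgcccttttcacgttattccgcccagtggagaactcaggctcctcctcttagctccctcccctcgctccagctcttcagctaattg
5330417C22Rik: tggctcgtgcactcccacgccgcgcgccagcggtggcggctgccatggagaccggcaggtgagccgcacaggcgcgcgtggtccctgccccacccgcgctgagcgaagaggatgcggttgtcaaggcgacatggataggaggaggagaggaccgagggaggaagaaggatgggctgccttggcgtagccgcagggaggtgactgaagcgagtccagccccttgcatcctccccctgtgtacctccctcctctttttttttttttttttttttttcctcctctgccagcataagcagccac

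The 3 promoters shared no motif among all of them. That of Sprr1a held a TATA box 43 bases before the start site, 2 AP-1 sites that began 146 and 116 bases before it, a CCAAT box and a glucocorticoid receptor (GR) motif. That of Osbpl3 held a CCAAT box on its other strand, 76 bases before the start site, and that of 5330417C22Rik held no match. Of 32851 promoters of the same length, 13.6% held the TATA box, 7.81% the AP-1 site, 37.4% the CCAAT box and 19% the glucocorticoid receptor (GR) motif.

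Sprr1a and Defb1, the epithelial products, are described first. Sprr1a was at 21.7 CPM in control mouse 154, 2.51 in 159, 1.25 in 181 and 13.0 in 193, and at 15.6, 14.6, 16.8 and 0.102 CPM in Mc1r LKO mice 141, 156, 157 and 182. Those 0.102 CPM were 2 counts, and mouse 181, the next lowest, was 12.2-fold higher (95% counting interval 3.04 to 107). The 3 low livers for Sprr1a were therefore 182, 181 and 159, and both genotypes held low and high mice.

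Defb1 was at 7.76, 7.07, 2.34 and 5.54 CPM in control mice 154, 159, 181 and 193 and at 3.25, 5.91, 9.17 and 0.102 CPM in Mc1r LKO mice 141, 156, 157 and 182. It too had 2 counts in mouse 182, and mouse 181 was 22.9-fold higher (95% interval 5.99 to 195). Unlike Sprr1a, Defb1 was not low in mouse 159, and mouse 141 came just above mouse 181.

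The membrane and lipid-handling genes were Osbpl3 and 5330417C22Rik. Osbpl3 was at 34.0, 32.7, 13.6 and 50.6 CPM in control mice 154, 159, 181 and 193 and at 36.0, 34.0, 23.1 and 1.23 CPM in Mc1r LKO mice 141, 156, 157 and 182. With 24 counts in mouse 182 and 261 in mouse 181, this was the best measured gap, 11.1-fold (95% interval 7.29 to 17.6), and Osbpl3 was the only one of the 7 genes with at least 10 counts in every mouse. 5330417C22Rik was at 2.71, 1.95, 1.20 and 4.12 CPM in the same order of control mice and at 3.18, 2.14, 2.38 and 0 CPM in the Mc1r LKO mice. It had 0 counts in mouse 182, and mouse 181 was at least 7.82-fold higher, taking 3 counts in mouse 182 as the floor and the count of mouse 181 as exact.

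The non-coding transcripts were H19, Gm5345 and Gm16348. H19 was at 4.20, 2.88, 0.104 and 10.6 CPM in control mice 154, 159, 181 and 193 and at 14.4, 3.90, 3.35 and 0.307 CPM in Mc1r LKO mice 141, 156, 157 and 182. H19 alone was lowest in mouse 181, with 2 counts against 6 in mouse 182, a 2.94-fold gap whose counting interval (0.526 to 29.8) spans no difference. The highest levels of H19 were those of mice 141 and 193, 1 of each genotype.

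Gm5345 was at 3.62, 6.14, 2.34 and 5.26 CPM in the control mice and at 5.88, 4.74, 5.53 and 0 CPM in the Mc1r LKO mice, in the same order. Gm16348 was at 1.75, 6.23, 1.04 and 1.39 CPM in the control mice and at 1.18, 1.69, 1.62 and 0 CPM in the Mc1r LKO mice. Both had 0 counts in mouse 182, and mouse 181 was at least 15.3-fold higher for Gm5345 and at least 6.80-fold higher for Gm16348, on the same floor, which leaves out the counting error of mouse 181. For Gm16348, mouse 181 was close to mouse 141 (20 and 17 counts), and mouse 159 stood above all others. Per kilobase of exon, the median level over the 8 mice was 17.2 CPM for Sprr1a, 6.57 for Defb1, 4.93 for Gm5345, 3.70 for Osbpl3, 1.47 for H19, 0.629 for Gm16348 and 0.359 for 5330417C22Rik.

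**Figure D1:**
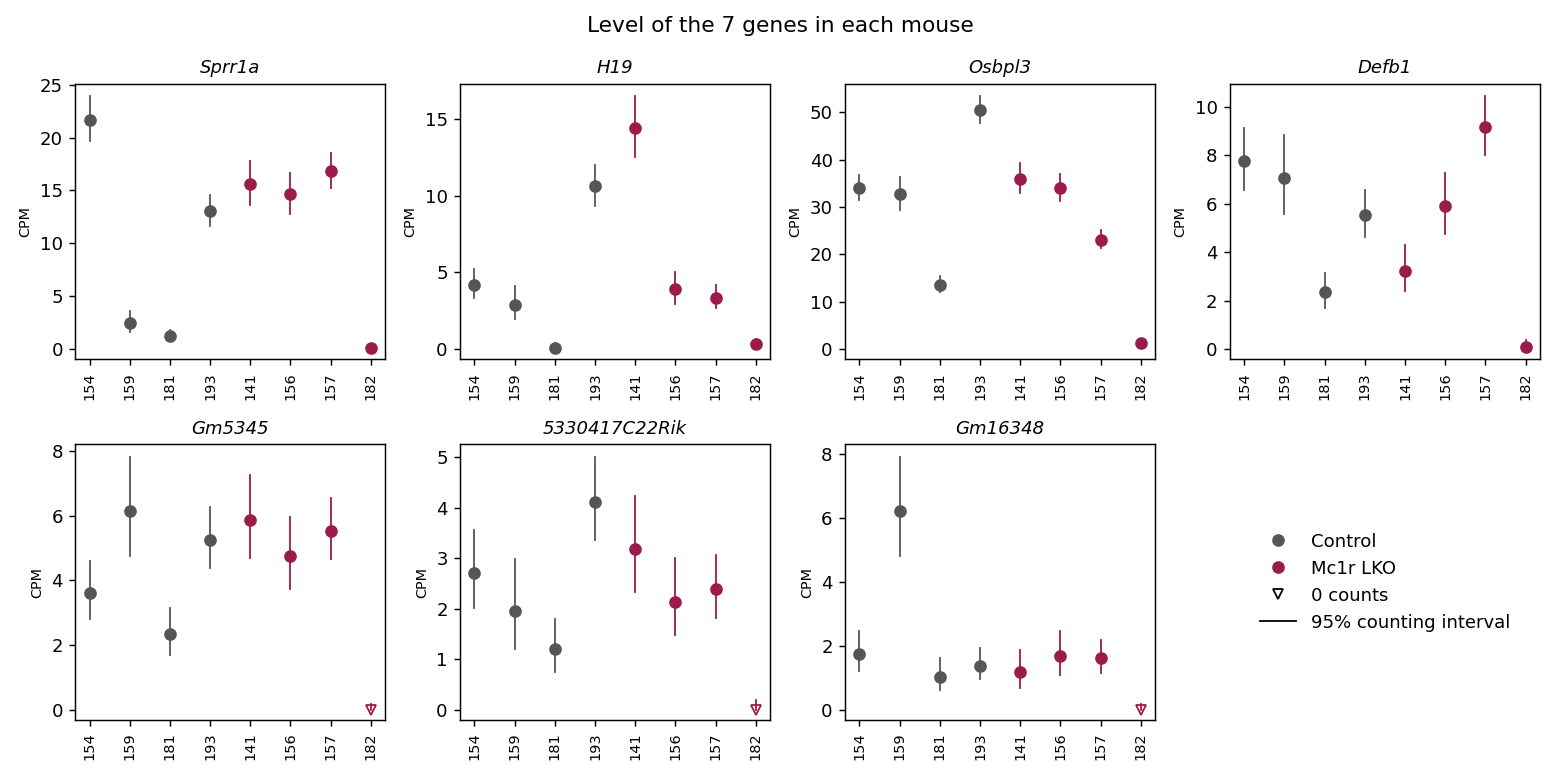
CPM (linear axis) of each of the 7 genes in the 4 control (grey) and 4 Mc1r LKO (red) mice, with 95% counting intervals and open triangles for 0 counts. Mouse 182 lies at or near 0 in every panel and mouse 181 is the lowest control in every panel, while the highest mouse differs from gene to gene.

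Mice 181 and 182 were thus the lowest 2 mice for all 7 genes, and mouse 182 the lowest for 6, as the choice of the genes would favour. The lowest of the other mice was 1.13-fold above mouse 181 for Gm16348, 1.39-fold for Defb1 and 1.54-fold for Gm5345. It was 1.63-fold above for 5330417C22Rik and 2.01-fold above for Sprr1a. For these genes the counting intervals of the compared mice overlapped, so the place of mouse 181 below the others is uncertain. They did not overlap for Osbpl3 (1.70-fold) or H19 (27.7-fold). Among all 13400 genes, 11.7% had mice 181 and 182 lowest, 21.8% had mouse 182 lowest and 20.2% had mouse 182 highest. On a log2 CPM scale with a prior count of 2, the range over the 8 mice was 5.85 for the median of the 7 genes and 0.698 for the median of all genes. Without mouse 182 these medians were 1.92 and 0.617, and without mice 181 and 182 they were 1.47 and 0.546. Of 12305 genes at 0.5 CPM or more in the other 7 mice, 16 were in mouse 182 under 10% of the lowest of those mice, and 6 of the 16 were of the 7 genes described here. In each other mouse the same count was between 0 and 3. Among the remaining 10 of the 16, named after their values were seen, were Cidea, a lipid droplet protein, Cyp2a22, a cytochrome P450, and Plk1, a mitotic kinase.

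The agreement of the 7 genes as a set rested on those 2 livers. Pearson's r of log2 CPM between pairs of the 7 genes, over the 8 mice, was between 0.484 and 0.988 with a median of 0.872 (21 pairs). Each r here compares values of the same libraries. Without mouse 182 the median was 0.521, and without mice 181 and 182 it was -0.078, with 8 of 21 pairs above 0 over 6 mice. Some pairs, named after their values were seen, still agreed over the 6 mice. The r was 0.856 for H19 and 5330417C22Rik, 0.697 for Osbpl3 and 5330417C22Rik, and 0.642 for H19 and Osbpl3. Others were opposed, such as Sprr1a and Gm16348 (-0.92) and H19 and Defb1 (-0.849). Among those 6 mice Sprr1a spanned 8.64-fold and was lowest in mouse 159, and Gm16348 spanned 5.30-fold and was highest in that mouse. H19 spanned 4.99-fold from mouse 159 to mouse 141, Defb1 2.82-fold from mouse 141 to mouse 157, Osbpl3 2.18-fold, 5330417C22Rik 2.11-fold and Gm5345 1.70-fold. No order of mice common to the 7 genes was left among the 6 mice.

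A principal component analysis of centred log2 CPM placed 37.6% of the variance on its first component, with mouse 182 at 59.3, mouse 181 at 27.8 and the other 6 mice between -28.2 and -7.0. The 7 genes held ranks 3 (Sprr1a), 4 (Gm5345), 6 (H19), 10 (Defb1), 12 (Osbpl3), 15 (5330417C22Rik) and 16 (Gm16348) of 13400 by the size of their weight on that component, and they were chosen from among the genes of highest rank with these values known. The scores of the genotypes did not separate, with a mean of 6.67 in Mc1r LKO mice and -6.67 in control mice (two-sided exact permutation test, p = 0.514, where 4 mice against 4 allow no p below 0.0286). Ranks 1 and 2 were held by Mndal and Cidea, which are not among the 7. Further down and between the 7 genes stood others low in mice 181 and 182 (Cyp2a22, Gpnmb and Cyp2b9) and genes high in them (Hsd3b5, a male-pattern steroid dehydrogenase, and Mup7, a major urinary protein), all of them named after their values were seen.

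**Figure D2:**
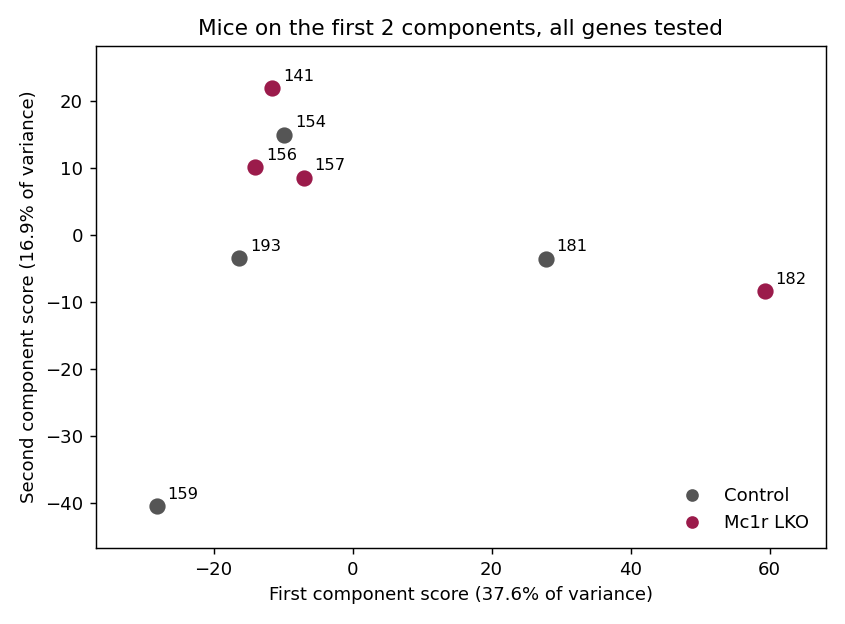
Scores of the 8 mice on the first component (x axis) and the second component (y axis) of log2 CPM of 13400 genes, control in grey and Mc1r LKO in red. Mouse 182 (59.3) and mouse 181 (27.8) lie to the right of the other 6 mice, which are all below 0 on the first component.

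The genes most like the 7, by Pearson's r of log2 CPM with their mean standardised profile over the 8 mice, were Micu2 (r = 0.987), a regulator of mitochondrial calcium uptake, and Anxa2 (0.981), a calcium-dependent membrane-binding protein. They were followed by Pth1r, Slc16a7, Uap1l1, Elovl7, Hip1 and 2510009E07Rik, with r between 0.976 and 0.980. The r takes no account of the size of a change. Micu2 was at 34.2 CPM in mouse 182, 47.3 in mouse 181 and 54.7 to 60 in the other 6 mice. Over those 6 mice its r was 0.506. Anxa2 was at 135, 110, 79.2 and 117 CPM in control mice 154, 159, 181 and 193 and at 115, 123, 131 and 42.1 CPM in Mc1r LKO mice 141, 156, 157 and 182. Its likeness did not extend to the 6 mice other than 181 and 182, where r was -0.381, whereas for 2510009E07Rik it was 0.671. The most opposite genes were Ceacam1 (r = -0.992), a cell adhesion receptor, Zc3h15 (-0.990), Man1a (-0.981), a mannosidase of glycoprotein processing, and Dnaja1 (-0.980), a co-chaperone of Hsp70. Dnaja1 was at 327 CPM in mouse 182 and 189 CPM in mouse 181, above 122 to 143 CPM in the other 6 mice. Of 12352 genes with a mean of at least 1 CPM, 269 had an r of 0.9 or more and 195 an r of -0.9 or less.

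Genes of steatosis were low in the same livers. In a list of 20 genes that are high in fatty mouse liver, 16 were lowest in mouse 182 (80%, against 21.8% of all genes) and 10 had mice 181 and 182 lowest (50%, against 11.7%). The list's median log2 difference from the mean of the mice was -0.955 in mouse 182 and -0.20 in mouse 181, and between 0.118 and 0.321 in the other 6 mice. All genes tested had medians between 0.002 and 0.014. These lists were written with earlier results of these livers known, and the counts are a description.

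Apoa4, an apolipoprotein that is high in fatty liver, was at 3310 CPM in mouse 182 and 4570 CPM in mouse 181, against 5730 to 8330 CPM in the other 6 mice. Cd36, a fatty acid transporter, was at 170 CPM in mouse 182 and at 260 to 341 CPM in the other 7, with mouse 181 at 287 CPM. Plin2, the main droplet coat of hepatocytes, did not follow, with 953 CPM in mouse 182, 1090 in mouse 181 and 923 in control mouse 193. Cidec, a droplet fusion protein named after its values were seen, was at 144, 159, 100 and 183 CPM in control mice 154, 159, 181 and 193 and at 124, 112, 151 and 35.1 CPM in the Mc1r LKO mice 141, 156, 157 and 182. Its relative Cidea was at 0.409 CPM in mouse 182 and 14.8 in mouse 181, but at 10.9 CPM in mouse 141, so that mouse 181 was not the second lowest. Of the other perilipins, also named after their values were seen, Plin4 was at 22.2 CPM in mouse 182, 35.0 in mouse 181 and 50.7 to 66.4 in the other 6 mice. Plin5, at 71.2 CPM in mouse 182, lay within the 58.8 to 86.0 CPM of the remaining mice. Cidec, Cidea and Plin4 were thus lowest in mouse 182, and Plin2 and Plin5 were not.

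Genes of injury and stress were mixed. Of 19 such genes, 7 were lowest in mouse 182 (36.8%, against 21.8% of all genes), 2 were highest there (10.5%, against 20.2%) and 3 had mice 181 and 182 lowest (15.8%, against 11.7%), with medians of -0.459 in mouse 182 and -0.442 in mouse 181. With library size alone as the scaling, the 3 became 7, beside 2551 of the 13400 genes in place of 1568. Krt8, a keratin of stressed hepatocytes, was at 323 CPM in mouse 182, 265 in mouse 181 and 304 to 431 in the other 6 mice, and Krt18, its partner, was at 304, 208 and 244 to 355 CPM. Saa1, an acute-phase protein, was at 92.0 CPM in mouse 182, 76.3 in mouse 181 and 81.3 in mouse 154, and was highest, at 234 CPM, in mouse 159. The 2 genes highest in mouse 182 were Atf3, a stress transcription factor, and Cdkn1a, an inhibitor of the cell cycle (11.4 and 101 CPM, named after their values were seen).

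Markers of recruited and lipid-associated macrophages had the order of the 7 genes throughout. All 10 tested had mice 181 and 182 lowest, and their median was -1.53 in mouse 182 and -0.99 in mouse 181, against 0.080 to 1.01 in the others. Ctsd, a lysosomal protease, was at 246 CPM in mouse 182 and 282 in mouse 181, against 313 to 369 CPM in the other 6 mice. Lyz2, lysozyme of myeloid cells, was at 26.9 and 37.1 CPM, against 51.4 to 93.4 CPM, and Cd9, a tetraspanin, at 18.5 and 18.1 CPM, against 24.0 to 39.1 CPM. In bulk liver, fewer cells of a type and less RNA per cell cannot be told apart. The part of these cells in the levels of the 7 genes was not tested.

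Of 10 resident Kupffer cell markers, 7 were lowest in mouse 182 (70%, against 21.8% of all genes) and 4 had mice 181 and 182 lowest (40%, against 11.7%). Their median was -0.81 in mouse 182 and -0.31 in mouse 181, beside -0.32 in mouse 141, and it was highest, at 1.03, in control mouse 159. Clec4f, a Kupffer cell receptor, was at 66.0 CPM in mouse 182 and 89.3 in mouse 181, above the 74.7 CPM of mouse 141 in the latter case. Among fibrosis genes, 10 of 17 (58.8%) had mice 181 and 182 lowest, with medians of -0.79 and -0.68 in mice 182 and 181 and 0.81 in mouse 193. Spp1, osteopontin, was at 16.8 CPM in mouse 182, 49.1 in mouse 181 and 84.1 to 239 in the other 6 mice, and Col3a1, a fibrillar collagen, at 36.8, 46.4 and 60.1 to 147 CPM. Stellate cell markers (10 tested, medians -0.464 in mouse 182 and -0.38 in mouse 181) and sinusoidal endothelial markers (9 tested, all lowest in mouse 182, median -0.435) were also low in mouse 182. Of 13 hepatocyte markers, 6 were highest in mouse 182, with a median of 0.306.

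**Figure D3:**
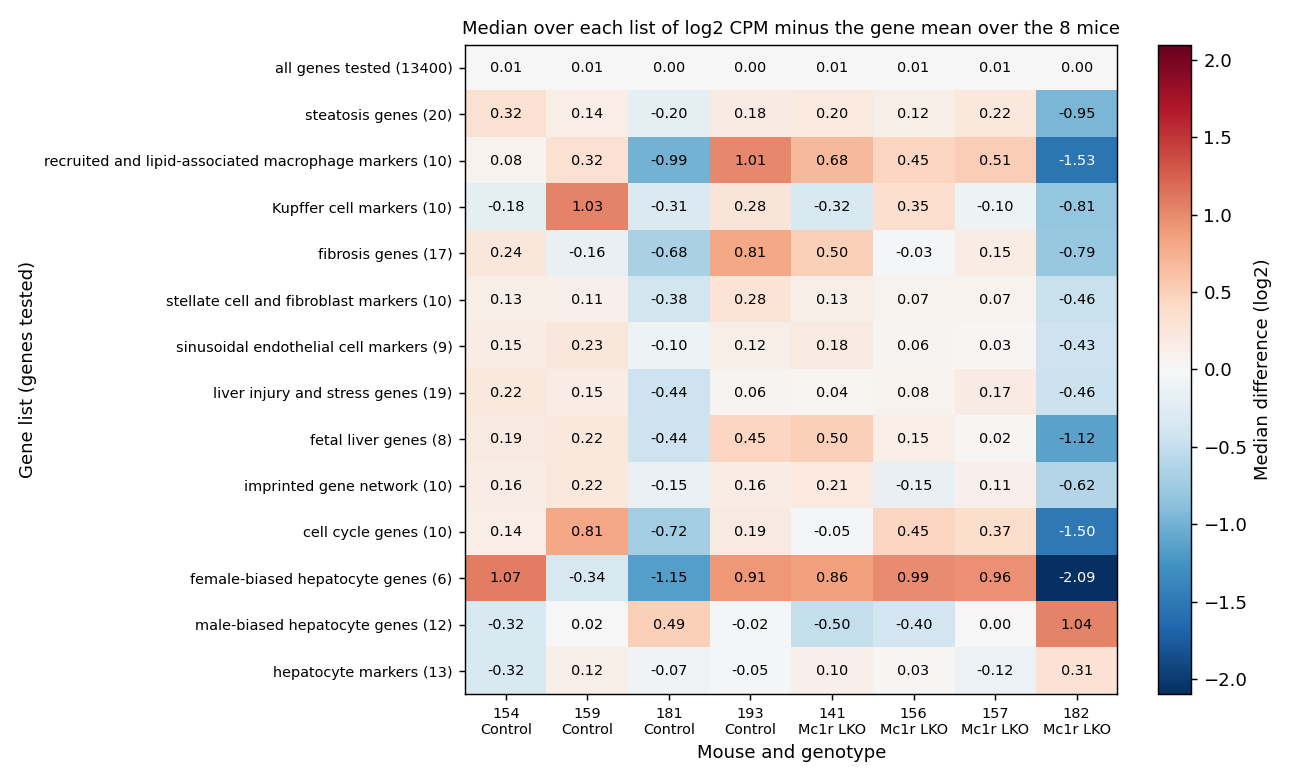
Median over each gene list (rows, with the number of genes tested) of log2 CPM minus the gene's mean over the 8 mice (columns, with genotype), blue for below and red for above the mean. Mouse 182 has the lowest value for steatosis, macrophage, fibrosis, fetal, cell cycle and female-biased genes and the highest for male-biased genes, and mouse 181 comes next to it in these rows.

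The other cell types that could carry the 7 genes were mostly near the limit of detection. Of 11 markers of gallbladder and squamous epithelium, where Sprr1a has its usual place, 3 were tested, Muc5b and Sprr3 had 0 counts in every mouse, and the sum of the list was between 22.7 and 41.3 CPM, most of it Wfdc2. The bile duct markers summed to 51.6 CPM in mouse 182, 87.3 in mouse 181 and 116 to 287 in the other 6 mice. That order was carried by Spp1, the largest term and the sole marker of 7 tested with mice 181 and 182 lowest. The list's median was -0.256 in mouse 182 and 0.241 in mouse 181, within the -0.438 to 1.41 of the other 6 mice. Sox9 was highest in mouse 182, at 9.96 CPM, against 4.16 to 6.88 CPM in the other mice. The duct keratin Krt19 was at 2.04 CPM in mouse 182, 1.51 in mouse 181 and 0.260 to 3.66 in the others. Epcam was highest, at 6.36 CPM, in mouse 141. Krt19 and Epcam were picked with their values known. The adipocyte markers Adipoq, Lep and Plin1 were at most 0.365 CPM in any mouse, while both tested genes of that list, Cidec and Lipe, which hepatocytes also express, had mice 181 and 182 lowest. Lipe, hormone-sensitive lipase, was at 8.74 CPM in mouse 182, 10.2 in mouse 181 and 13.9 to 24.1 in the other 6 mice. Of the other marker lists, 2 of 10 lymphocyte, 3 of 9 neutrophil, 1 of 10 pancreas and gut and 5 of 6 erythroid genes were tested, and none had mice 181 and 182 as the lowest pair.

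Programs of growth and sex pattern completed the order. Of 8 fetal liver genes tested, 4 had mice 181 and 182 lowest, with a median of -1.12 in mouse 182. Of 10 cell cycle genes, 8 did (80%), with medians of -1.50 in mouse 182 and -0.72 in mouse 181, and Mki67, a marker of dividing cells, was at 0.920 and 2.50 CPM there, against 3.32 to 13.9 CPM elsewhere. Of 6 female-biased hepatocyte genes, 4 had mice 181 and 182 lowest, with medians of -2.09 and -1.15. Cyp2b9, a female-biased cytochrome P450, was at 185, 38.1, 22.7 and 127 CPM in control mice 154, 159, 181 and 193 and at 99.6, 133, 117 and 3.78 CPM in Mc1r LKO mice 141, 156, 157 and 182. As for Sprr1a, mouse 159 came next after mice 182 and 181, and mouse 154 was highest.

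Of 12 male-biased genes, 8 were instead highest in mice 181 and 182, as were 12.6% of all genes, with medians of 1.04 in mouse 182 and 0.49 in mouse 181. The family of major urinary proteins, taken as a group after the values were seen, had 15 of 19 genes highest in these mice, and Mup3 was at 7950 and 5510 CPM there, against 2770 to 4080 CPM in the other 6 mice. Mup20 did not follow, at 2120 and 1720 CPM against 1950 to 3360 CPM. Of 64 heat shock and DnaJ genes, also grouped after the values were seen, 26 were highest in mice 181 and 182. The medians of this list were 0.192 in mouse 182 and 0.132 in mouse 181. Hspa5, the chaperone of the endoplasmic reticulum, was at 1890 and 1350 CPM there, against 816 to 1010 CPM in the other 6 mice. Hsp90ab1, the highest of the list, was at 1520 CPM in mouse 182. In mouse 181 it was at 1110 CPM, within the 913 to 1140 CPM of the other 6 mice. With library size alone as the scaling, the median of all genes in mouse 182 shifted to -0.129. The number with mice 181 and 182 highest was then 666 of 13400 for all genes in place of 1684. It was 15 of 64 for heat shock genes and 15 of 19 for the major urinary proteins.

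Most relatives of the 7 genes were too low to compare. Of 14 small proline-rich genes only Sprr1a was tested, and its nearest copy Sprr1b had at most 5 counts in any mouse. Of 9 beta-defensins only Defb1 was tested. Of 9 oxysterol-binding family genes tested, Osbpl3 was the 1 with mice 181 and 182 lowest, and Osbpl1a, the highest of them, lay between 111 and 124 CPM. Among 10 imprinted genes known to move with H19, 7 were lowest in mouse 182 and 4 had mice 181 and 182 lowest, with a median of -0.621 in mouse 182. Gnas, the highest of them, was at 535 CPM in mouse 182 within the 488 to 632 CPM of the others. Igf2, the imprinted partner of H19, had between 0 and 6 counts, and Mir675, the microRNA within H19, had 0 counts in every mouse.

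The nearest tested gene on each side of the 7 genes ranged, over the 8 mice, from 0.207 to 2.61 on the log2 scale with a median of 0.96, and 1 of the 14 had mice 181 and 182 lowest. Fgl1, a secreted hepatocyte protein that lies 2983 bases from Gm16348 on the other strand, was at 292 CPM in mouse 182, the highest, where Gm16348 had 0 counts, and at 271 CPM in mouse 159, where Gm16348 was also highest. Slc7a2, an arginine transporter 7369 bases from Gm5345, was at 341 CPM in mouse 182 and 333 CPM in mouse 181, within the 187 to 366 CPM of the other 6 mice. The other adjacent or overlapping genes were mostly at 0 counts.

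The genotype comparison asks whether loss of hepatocyte Mc1r changed the 7 genes, and none passed it. The choice of the genes favoured this outcome, because their axis had a control and an Mc1r LKO mouse at its far end. That widens the spread within each genotype, so the counts below cannot show that genotype had no effect on them. By the quasi-likelihood test of edgeR, at a Benjamini-Hochberg adjusted p under 0.05, 0 of the 7 were called, against 0% of the 13400 genes. At an unadjusted p under 0.05 the count was 0 of 7, against 6.72% of all genes (901), and in 0 of 7 did the genotypes not overlap, against 4.16%. DESeq2 called 17 genes over all, and of the 7 it gave an adjusted p only for Sprr1a and Osbpl3, neither of them called. Sprr1a was at 9.62 ± 9.63 CPM in control and 11.8 ± 7.84 CPM in Mc1r LKO mice (SD, n = 4 each), and its log2 fold change was 0.27 (SE 0.96, edgeR adjusted p = 0.977). H19 differed by 0.25 (SE 1.0), Osbpl3 by -0.48 (SE 0.68), Defb1 by -0.28 (SE 0.74), Gm5345 by -0.10 (SE 0.76) and 5330417C22Rik by -0.40 (SE 0.75), all on the log2 scale. The largest value was that of Gm16348, at 2.60 ± 2.43 CPM in control and 1.12 ± 0.780 CPM in Mc1r LKO mice (SD, n = 4 each), whose log2 fold change was -1.16 (SE 0.82, edgeR adjusted p = 0.855). Without control mouse 159, the mouse with the highest Gm16348, it was -0.31.

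These differences hung on single mice. Without mouse 182 the log2 fold change was 0.68 for Sprr1a, 0.65 for H19, -0.08 for Osbpl3, 0.14 for Defb1, 0.33 for Gm5345, 0.02 for 5330417C22Rik and -0.71 for Gm16348, and the standard error was smaller for all 7. Without mice 181 and 182 the standard error of Osbpl3 was 0.205 in place of 0.681, and its log2 fold change was -0.34 (edgeR adjusted p = 0.753). In the gene lists above, 0 genes were called by genotype, and the median log2 fold change of steatosis genes was -0.15 with all mice and 0.03 without mouse 182, beside -0.01 for all genes tested.

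**Figure D4:**
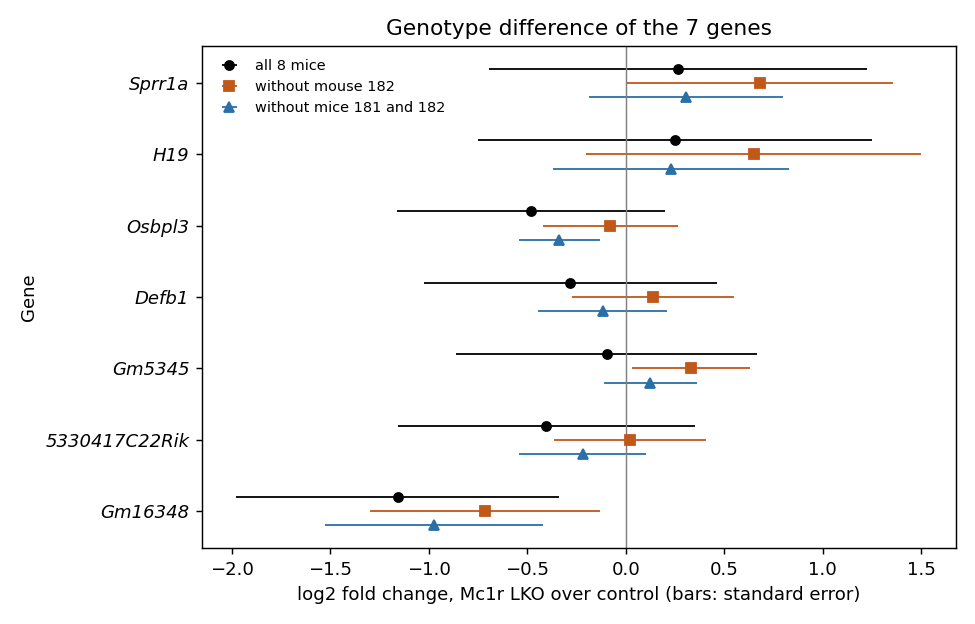
Log2 fold change of each of the 7 genes, Mc1r LKO over control (x axis), with bars of 1 standard error, from all 8 mice (black circles), without mouse 182 (orange squares) and without mice 181 and 182 (blue triangles). Bars shorten as these mice are left out, and the point of Defb1 moves from -0.28 to 0.14 without mouse 182.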

How the data were processed

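Livers of 4 control and 4 Mc1r LKO mice were used, grouped by their GEO labels. Per the submitters' processing notes the authors trimmed reads with Trim Galore 0.6.6, aligned them with STAR 2.7.6a and counted them with Subread 2.0.1. The authors deposited raw counts, whole numbers of read pairs for each gene. The file headers name GRCm38, Ensembl release 102 and strand option 2, so antisense genes do not share counts, while reads shared by near-identical copies can be lost. Symbols were given to 55141 of 55487 identifiers.

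Counts were filtered with filterByExpr (minimum count 10, minimum total count 15), scaled by TMM and compared between genotypes by the quasi-likelihood test of edgeR 4.0.16 in R 4.3.3, and p-values were adjusted over 13400 genes (Benjamini-Hochberg, 0.05). Alternatives were DESeq2 1.42.0, limma-voom (limma 3.58.1), other size factors and filters, and leaving out each mouse. CPM used TMM-scaled library sizes. Library size alone was used for the range of CPM that 3 counts stood for and for the genes under 10% of the lowest other mouse. On simulated counts, edgeR called 64 of 100 genes changed 2-fold, 98 of 100 changed 4-fold and 5 unchanged genes. These rates cannot be applied to the genes described here, which varied far more between mice than most genes. Their SD of log2 CPM over the mice ranged from 1.64 (Gm16348) to 2.39 (Sprr1a), against a median of 0.236 for all genes. Transcripts were compared by BLAST 2.17.0. Standard errors of edgeR were derived from its test, as the absolute log2 fold change over the square root of the F statistic. Intervals and floors cover counting error only. Nothing in the labels gives a batch, so none could be tested.

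The 7 genes and the gene lists were chosen with earlier results of these data known. Other genes named were taken from the nearest genes and from the 8 genes most like and 4 most opposite to the 7. The rest came from the 3 highest of each list, with the exceptions stated. For many lists not all of the 3 highest are given, and for some none is.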

Additional observations from a re-analysis of the deposited data

Results flagged for a closer look

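In 13 of 56 groups of 4 mice, each group of a single genotype, 1 mouse lay past Dixon's critical value of 0.829, the gap to its nearest neighbour as a share of the group's range. Chance flags about 1 in 20 independent groups, but the 13 cannot be read against that share. The same mice recur in all groups, the 7 genes were chosen on the axis that mouse 182 defines, and the lists were written with earlier results known, so the values below are a description.

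Among the Mc1r LKO mice, mouse 182 was the distant mouse for 5 of the 7 genes. Its log2 CPM was -2.25 for Sprr1a (next 3.88), 0.417 for Osbpl3 (next 4.54), and -3.2 for each of Gm5345, 5330417C22Rik and Gm16348, where it had 0 counts. Mouse 182 also stood apart from them on the first component (59.3, next -7.03), where control mouse 181 lay nearer, at 27.8. The same held in the medians of steatosis genes (-0.955), stellate cell and fibroblast markers (-0.464), recruited and lipid-associated macrophage markers (-1.53) and female-biased hepatocyte genes (-2.09). Among control mice, mouse 181 stood apart in the median of the imprinted genes (-0.147), mouse 159 in that of the neutrophil markers (0.556) and mouse 193 in that of the erythroid markers (-0.509).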

How the results depend on the processing

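Of 101 genotype differences of the 7 genes under alternatives, 90 kept their direction and 11 reversed, none of them past the threshold. For Sprr1a the reversed log2 fold changes were -0.49 (limma-voom), -0.02 (without control mouse 159) and -0.10 (without 181). For H19 they were -0.16 (without 181) and -0.84 (without Mc1r LKO mouse 141). For Defb1 it was 0.14 and for 5330417C22Rik 0.022 (both without mouse 182). For Gm5345 they were 0.10 (without 159), 0.03 (without 193), 0.33 (without 182) and 0.13 (without 181 and 182, chosen after seeing the data). Without each mouse in turn the values ran from -0.105 to 1.02 for Sprr1a, -0.842 to 1.20 for H19, -0.885 to 0.140 for Defb1, -0.322 to 0.332 for Gm5345, -0.732 to 0.022 for 5330417C22Rik, -0.753 to -0.077 for Osbpl3 and -1.42 to -0.31 for Gm16348. With limma-voom the values of Osbpl3 (-1.21), Defb1 (-1.19), Gm5345 (-1.58), 5330417C22Rik (-1.66) and Gm16348 (-1.75) kept their direction and were over 1.5 times larger. The cause was not tested. Over all genes the number called was 0 in edgeR, 1 with no filter beyond 1 count and 17 with DESeq2, and 0 without each mouse in turn. The share of the first component, 37.6%, was 44.2% with the 500 most variable genes, 30% at unit variance and 27.5% to 41.0% without each mouse in turn. The median range of the 7 genes, 5.85, was 1.92 to 5.85 without each mouse in turn, lowest without mouse 182, and 1.47 without mice 181 and 182. A filter of 10 counts in every mouse kept Osbpl3 alone of the 7 genes. With the gene lists scaled by RLE, upper quartile or library size alone, chosen after seeing the data, the medians of the steatosis, macrophage, fibrosis, cell cycle and sex-biased lists in mice 181 and 182 kept their direction. Depth limits levels near 0 to the counting intervals given. No paired analysis was possible because the groups share no replicate numbers.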
